A study of Mus musculus with 28 samples.

Results

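Mouse embryonic stem (ES) cells without DNA methyltransferases were compared with ES cells without TET dioxygenases while KAP1 (TRIM28), the corepressor of KRAB zinc finger proteins, was left in place. The members were chosen by genotype and hairpin alone, as 5 of the 16 RNA libraries of the study. These were 3 libraries of DNMT TKO cells (homozygous loss of Dnmt1, Dnmt3a and Dnmt3b) and 2 of TET TKO cells (loss of Tet1, Tet2 and Tet3), all transduced with the empty hairpin vector (shEmpty). Both lines were grown in serum-free medium with the 2 inhibitors PD0325901 and CHIR99021 and LIF, received a puromycin-selectable lentiviral vector without a Kap1 hairpin, and were collected after selection. WT shEmpty libraries, 3 in number, are given beside them, and the 5 libraries of the same lines with the Kap1 hairpin (shKap1) are used as a second, separate set. Each genotype was a single line, and the lines came from different laboratories, so genotype and line cannot be told apart. The labels name 1 strain for all of them, 129S4/SvJae, which was not checked for the TET TKO line, so a difference of strain cannot be told apart from genotype either. They do not give an age or sex of the animals behind the lines. Libraries of one group were separate experiments on the same line.

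DNMT1 copies CpG methylation onto newly replicated DNA, and DNMT3A and DNMT3B place it on unmethylated sites. TET1, TET2 and TET3 oxidise 5-methylcytosine to 5-hydroxymethylcytosine and further forms, from which an unmodified cytosine can be restored. The 2 mutants are therefore opposite in kind, one without the means to methylate and one without the means to oxidise. DNA methylation is best known for keeping germline genes, one allele of imprinted genes and young transposable elements (TEs) silent, while KAP1 and H3K9me3 act on many of the same elements. For ES cells without these methyltransferases, the paper cites earlier work in which TE expression changed little.

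Sequences around the gene starts show how the promoters of the genes with large differences vary in CpG, the dinucleotide that carries the methyl group. The 250 bases upstream of the annotated start are given 5′ to 3′ for the listed germline, Rhox and imprinted genes with the largest fitted differences, from RefSeq on GRCm38.p6, with each CG in capitals. A pair of X-linked Rhox homeobox genes and the X-linked germline gene Usp26, all higher in DNMT TKO, are shown first. Dazl, which encodes an RNA-binding protein of germ cells, was added after its values were seen, and Igf2, a paternally expressed growth factor, was higher in TET TKO. Kcnq1 and H19 also met the rule. For Rhox4a, Rhox4e and Kcnq1 a line had no read, so their places rest on fitted values, which are not bounds.

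Rhox4a (chrX:37265125-37265374, plus strand): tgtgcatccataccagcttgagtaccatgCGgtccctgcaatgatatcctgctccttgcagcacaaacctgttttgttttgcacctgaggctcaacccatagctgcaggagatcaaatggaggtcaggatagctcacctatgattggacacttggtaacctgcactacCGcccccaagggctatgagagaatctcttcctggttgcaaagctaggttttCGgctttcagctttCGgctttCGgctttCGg
Rhox4e (chrX:37557162-37557411, plus strand): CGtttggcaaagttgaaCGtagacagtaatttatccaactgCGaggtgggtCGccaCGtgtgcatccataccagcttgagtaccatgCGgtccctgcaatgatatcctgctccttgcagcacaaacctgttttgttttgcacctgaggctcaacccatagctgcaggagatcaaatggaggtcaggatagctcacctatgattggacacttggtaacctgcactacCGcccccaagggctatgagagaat
Usp26 (chrX:51801234-51801483, minus strand): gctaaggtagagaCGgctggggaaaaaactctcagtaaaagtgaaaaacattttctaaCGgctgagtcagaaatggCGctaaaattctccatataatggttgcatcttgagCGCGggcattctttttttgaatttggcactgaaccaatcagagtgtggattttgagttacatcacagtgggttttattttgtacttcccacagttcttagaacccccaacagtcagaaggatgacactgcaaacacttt
Dazl (chr17:50293621-50293870, minus strand): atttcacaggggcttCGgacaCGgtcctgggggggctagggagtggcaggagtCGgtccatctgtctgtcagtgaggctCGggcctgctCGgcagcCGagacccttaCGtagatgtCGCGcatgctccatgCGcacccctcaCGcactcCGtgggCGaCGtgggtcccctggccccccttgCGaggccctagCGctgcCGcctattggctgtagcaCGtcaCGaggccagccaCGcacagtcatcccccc
Igf2 (chr7:142666817-142667066, minus strand, 1 of 4 starts in the table): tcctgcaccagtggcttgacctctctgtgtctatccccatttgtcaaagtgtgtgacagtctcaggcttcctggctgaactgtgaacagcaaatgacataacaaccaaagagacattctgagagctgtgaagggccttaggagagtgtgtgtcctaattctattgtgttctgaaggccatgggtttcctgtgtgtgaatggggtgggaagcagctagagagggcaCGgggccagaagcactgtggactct

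The Dazl stretch held 20 CpGs, against 6 in Rhox4a, 7 in Rhox4e, 5 in Usp26 and 1 in Igf2. Rhox4a and Rhox4e share an identical run of 192 bases, at shifted positions, so these stretches upstream of their starts are not independent. In windows of 300 bases read from the mm9 genome at the deposited starts, which also take in the first 50 transcribed bases and need not have the RefSeq start, Dazl had 30 CpGs, and 85.7% of 20316 tested genes had that number or fewer. For Usp26 the window held 5 CpGs and the share was 24.2%, and for Igf2 it held 2 and the share was 10%.

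The libraries held between 20134172 and 29373696 reads on genes and between 898152 and 1435273 reads on TEs. Levels are given as CPM, the reads of a gene or TE scaled to the gene reads of its library. TET TKO replicate 2 stood apart, with 18.3% of its gene and repeat reads on rRNA repeats, against 0.501% to 1.49% in the other 4 libraries; those reads enter neither genes nor TEs. Its TE families also lay above those of replicate 1 by a median of 0.13 on the log2 scale over 646 families, while DNMT TKO libraries differed from each other by medians of 0.01 to 0.03. DNMT TKO replicate 1 lay farther from replicates 2 and 3 (median absolute log2 difference per gene 0.167 and 0.17) than these did from each other (0.0694), and the 2 TET TKO libraries differed by 0.0849. Pearson correlations of log2 CPM across genes, which are not independent replicates, were 0.9909 to 0.998 within DNMT TKO, 0.9961 within TET TKO and 0.9585 to 0.9623 between the lines. Mitochondrial transcripts took 3.32% to 3.45% of gene reads in DNMT TKO and 2.42% to 2.49% in TET TKO.

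The 6 deleted genes were all lower in the line that lacks them than in the other mutant line, 5 of them past the 2-fold limit. Dnmt1 was at 157, 156 and 156 CPM in the DNMT TKO libraries and at 477 and 500 CPM in the TET TKO libraries, a log2 difference (DNMT TKO minus TET TKO throughout) of -1.64 with an SE of 0.05. Dnmt3a (6.55 to 8.49 CPM against 38.6 and 34.9) and Dnmt3b (20.2 to 32.9 against 114 and 128) were lower in the same libraries. Tet1 was at 667, 537 and 530 CPM in DNMT TKO and at 219 and 247 CPM in TET TKO, and Tet2 at 284 to 288 against 92.1 and 90.1 CPM. Transcripts of all these genes thus remained in the lines that lack their function, at 156 CPM or more for Dnmt1 and 90.1 CPM or more for Tet1 and Tet2. Tet3, at 19.1, 25.1 and 23.6 against 13.3 and 14.2 CPM, differed by 0.72 on the log2 scale, below the 2-fold limit. WT cells held 10.7 to 15.9 CPM, so for Tet3 TET TKO lay by WT and DNMT TKO lay above it. With an offset for the median of its chromosome, 6, the difference was 1.02. Trim28, the gene of KAP1, was at 1701 to 2086 CPM in DNMT TKO and at 1772 and 1899 CPM in TET TKO (difference 0.03, SE 0.16, adjusted p = 0.924).

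**Figure D1:**
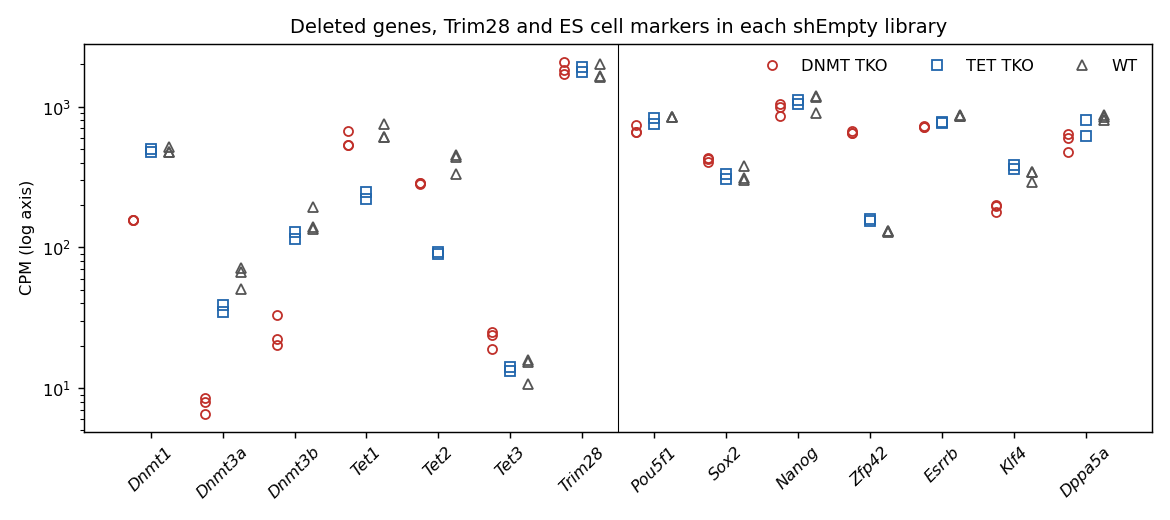
CPM on a log axis for the 6 deleted genes, Trim28 and the ES cell markers, 1 symbol per shEmpty library (3 DNMT TKO, 2 TET TKO and 3 WT). The Dnmt genes are lowest in DNMT TKO and Tet1 and Tet2 lowest in TET TKO, Trim28 overlaps between the lines, and Zfp42 stands at 648 to 665 CPM in DNMT TKO against 154 and 159 CPM in TET TKO.

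Both lines expressed the pluripotency factors. Pou5f1, Nanog and Esrrb differed by -0.20, -0.16 and -0.10 on the log2 scale, Sox2 by 0.40 and Dppa5a by -0.31, and none reached 2-fold. Zfp42 (Rex1), a zinc finger gene of naive cells, was the exception, at 665, 648 and 650 CPM in DNMT TKO against 159 and 154 CPM in TET TKO. Its difference was 2.06 with an SE of 0.09 (adjusted p = 9.78e-12), and WT cells, at 128 to 130 CPM, lay by TET TKO. Klf4, a pluripotency factor downstream of LIF, was at 179 to 199 against 381 and 361 CPM, a difference of -0.95 that stayed just short of 2-fold. Of 26 listed naive genes 3 were called, that is at least 2-fold apart at an adjusted p below 0.05 (11.5%, against 14.3% of all tested genes). Beside Zfp42 these were Dppa3 (33.6, 84.6 and 86.8 CPM against 22.2 and 17.8), whose product protects methylation in the fertilised egg, and Pramel7 (17.1 to 24 against 62 and 64.1). Of the 8 core pluripotency genes 0 were called by edgeR or DESeq2 and 1, Utf1, by limma-voom, while 3 had an unadjusted p below 0.05 with edgeR. At any fold, 2 of the 8 had an adjusted p below 0.05 with edgeR, beside 38.7% of all tested genes.

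Of 20321 genes tested, 2909 or 14.3% differed at an adjusted p below 0.05 and at least 2-fold, 1383 (6.81%) higher in DNMT TKO and 1526 (7.51%) higher in TET TKO. The test was edgeR's quasi-likelihood F test, with Benjamini-Hochberg adjustment over all genes, and it measures the spread between libraries of single lines. In 58.9% of all tested genes the 2 groups did not overlap, so a lack of overlap alone was common. Among genes higher in DNMT TKO, WT lay nearer to TET TKO on the log2 scale for 949 (68.6%) and nearer to DNMT TKO for 434. Among genes higher in TET TKO, WT lay nearer to TET TKO for 875 (57.3%) and nearer to DNMT TKO for 651.

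Germline genes were called more often than genes at large, mostly as higher in DNMT TKO. Members of this and the other gene lists were chosen with earlier results of these data known, so the list shares describe the members and test nothing. Of 54 listed genes tested, 20 were higher in DNMT TKO and 4 in TET TKO, 44.4% of the list against 14.3% of all genes, and the median difference was 0.67 against -0.02 over all genes. Dazl was at 382, 506 and 535 CPM in DNMT TKO and at 47.6 and 43 CPM in TET TKO (log2 difference 3.39, SE 0.20, adjusted p = 3.51e-08), above the 17.2 to 25.6 CPM of WT. Usp26, a deubiquitinase gene of spermatogenic cells, was at 3.05, 4.52 and 3.97 against 0.141 and 0.225 CPM. Tuba3b, an alpha-tubulin gene of testis, was at 8.89 to 9.76 against 0.811 and 0.864 CPM, and its near copy Tuba3a at 81.2 to 93 against 27.2 and 25.3 CPM. These groups were far apart, but reads on sequence shared by the 2 tubulin genes are not in counts of unique reads.

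Meiotic and piRNA genes were found on both sides. Smc1b, a meiotic cohesin subunit, was at 9.14, 11.4 and 11.3 CPM in DNMT TKO and 1.62 and 1.46 CPM in TET TKO. Hormad1, a protein of the meiotic chromosome axis, was at 33.6, 25.9 and 30 against 6.77 and 5.41 CPM. The synaptonemal complex gene Syce1 and Fkbp6 and Gpat2, both needed for piRNA production, were likewise higher in DNMT TKO, by 1.55, 1.71 and 1.59 on the log2 scale. Nanos3 (2.51), Sohlh2 (2.20) and the Piwi gene Piwil4 (2.09) followed. The opposite difference was seen for Ddx4, the Vasa helicase of germ cells, at 4.06, 4.49 and 4.43 against 11.6 and 10.3 CPM, and for Dmc1, the meiotic recombinase, at 1.42 to 2.42 against 7.97 and 8.34 CPM. Brdt, a testis bromodomain gene, and Tdrd1, a Tudor gene of the piRNA pathway, were also higher in TET TKO, by -2.34 and -1.33 in the same direction of subtraction. Tdrd1 rested on 49 reads and fell below a call without DNMT TKO replicate 1 (-1.15), without DNMT TKO replicate 2 (-0.93) and without TET TKO replicate 2 (-0.97).

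X-linked gene clusters of the germline and placenta gave the highest list medians. Among 8 tested Rhox homeobox genes 5 were higher in DNMT TKO and 1 in TET TKO, 75% against 14.3% of all genes, with a median difference of 2.42. The Rhox4 genes are near copies, so the level of each copy is uncertain. Rhox4a had 0.355, 0.621 and 0.733 CPM in DNMT TKO and no read in either TET TKO library, which makes it at least 10.8-fold higher when TET TKO is set to 3 reads over the group. Rhox4e, with 13 reads in all, was at least 3.2-fold higher by the same bound, and its call was lost when either TET TKO library was left out. Rhox2a (1.57, 3.52 and 2.89 against 0.211 and 0.0751 CPM), Rhox13 and Rhox10 were also higher in DNMT TKO. Rhox6 was higher in TET TKO, at 3.03 and 1.84 against 0.386 to 0.863 CPM.

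Of 20 tested Xlr and Mage genes, 9 were higher in DNMT TKO and 1, Xlr5c, in TET TKO, 50% of the list. The MAGE-A genes are silent in most somatic cells and active in testis and tumours. Magea8 was at 18.6, 19.6 and 19.1 CPM against 0.881 and 1.39, Magea5 at 17.5 to 18.8 against 1.2 and 1.09, and Magea4 at 13.1 to 18 against 0.987 and 1.05. Magea6 (1.52 to 2.18 CPM) and Magea3 (1.14 to 1.35 CPM) had 1 read each in TET TKO replicate 2 and none in replicate 1. In WT both had 0 CPM in all 3 libraries. Xlr3b, an X-linked lymphocyte-regulated gene that is itself imprinted, was at 23.4, 30.6 and 32.2 against 11.5 and 12.1 CPM. The Mage and Xlr genes are near-identical within each cluster, so the share of each copy is uncertain.

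Imprinted genes, which are read from 1 parental allele, split both ways. Among 24 paternally expressed genes 3 were higher in DNMT TKO and 3 in TET TKO (25% called, median 0.20), and among 23 maternally expressed genes 5 and 7 (52.2%, median -0.53), against 14.3% called over all genes. At the Dlk1-Dio3 cluster of chromosome 12, the maternally expressed noncoding RNAs were high in DNMT TKO. Meg3 was at 540, 521 and 529 CPM against 133 and 144 in TET TKO, with WT between at 261 to 309 CPM. Rian, which hosts small nucleolar RNAs, was at 630 to 665 against 169 and 177 CPM, and Mirg, which hosts miRNAs, at 32.7 to 34.9 against 9.48 and 8.45 CPM. The 3 differences were alike, at 1.94, 1.90 and 1.93. Dio3, a paternally expressed deiodinase gene at the other end of the cluster, showed the reverse, at 11.2, 12.2 and 12.3 against 42.4 and 42.7 CPM.

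At the Igf2-H19 domain of chromosome 7 both the paternally expressed and the maternally expressed gene were higher in TET TKO. Igf2 was at 1.37, 1 and 1.35 CPM in DNMT TKO and at 26 and 24.9 CPM in TET TKO (difference -4.37, SE 0.32, adjusted p = 2.75e-07), with WT between them at 5.83 to 12.4 CPM. H19, a noncoding RNA, was at 0.231 to 0.276 against 2.64 and 2.55 CPM. The neighbouring maternally expressed genes Phlda2 and Cdkn1c, which restrain placental and embryonic growth, and Slc22a18 and Ascl2 were higher in TET TKO as well, by -2.44, -1.88, -1.71 and -1.04. Kcnq1 had no read in DNMT TKO and 10 reads in TET TKO, at least 4.52-fold more, and DESeq2 did not call it. Elsewhere, Plagl1 (263 to 291 against 115 and 125 CPM), Inpp5f (35.4 to 39.5 against 12.5 and 15.3), Usp29, Zim1 and Asb4 were higher in DNMT TKO. Ppp1r9a (12.4 to 14.3 against 36.9 and 38.8 CPM) and Nnat were higher in TET TKO.

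Among genes of the machinery itself, the lists of DNA methylation and of the TET pathway hold the deleted genes, whose loss defined the lines. The shares of these lists are therefore not read against the 14.3% called over all genes. Of 17 listed genes of DNA methylation Dppa3 and the 3 deleted genes were called (23.5%). Among 18 genes of the TET and base excision pathway 5 were called (27.8%), which were the deleted Tet1 and Tet2, Tdg, Neil2 and Neil3. The glycosylase Tdg, which removes oxidised cytosines, was at 4.93, 4.25 and 3.2 CPM in DNMT TKO against 17.8 and 16.1 in TET TKO, with WT at 6.23 to 6.94 CPM. Of the NEIL glycosylases, Neil2 was higher in TET TKO (-1.22) and Neil3 in DNMT TKO (1.07, and 0.93 without DNMT TKO replicate 3, below the limit). None of 18 gene entries (at most 17 symbols) of the KAP1 and H3K9 machinery and none of 32 Polycomb genes was called by edgeR, DESeq2 or limma-voom. Without the fold limit, 12 and 19 members had an unadjusted p below 0.05 and 9 and 18 an adjusted p below 0.05 (edgeR). An adjusted p below 0.05 at any fold was met by 38.7% of all tested genes. Of the KAP1 and H3K9 genes, Setdb1, the H3K9 methyltransferase recruited by KAP1, was at 322 to 390 against 235 and 238 CPM (0.54). Among 18 gene entries (at most 17 symbols) of KRAB zinc finger genes with known targets Zfp429 alone was called (5.56%), at 0.231 to 0.483 against 6.45 and 6.05 CPM.

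Genes of Wnt signalling were called more often than genes at large, 6 of 21 as higher in DNMT TKO, 1 as higher in TET TKO and 14 in neither direction (33.3% called against 14.3%, median 0.54). Their summed level was 1960 to 2022 CPM in DNMT TKO against 2638 and 2715 CPM in TET TKO, an order set by Sfrp1 alone, since without it the sums were 1844 to 1905 against 1494 and 1560 CPM. Wnt ligands stabilise beta-catenin, which the inhibitor CHIR99021 in the medium also does, and the targets below are transcribed with its help. T (Brachyury), a mesoderm factor, was at 7.57, 11.6 and 10.6 CPM against 1.02 and 0.939 (difference 3.34). Axin2, a feedback inhibitor, was at 122, 123 and 117 against 56.5 and 61.8 CPM, and Sp5, Lef1, Rnf43 and the secreted antagonist Dkk1 differed by 1.59, 1.62, 2.61 and 2.03. Sfrp1, a secreted Wnt antagonist and the gene called higher in TET TKO, had the highest level among these in that line, with 142, 117 and 115 CPM against 1144 and 1155 CPM (difference -3.20, SE 0.11, adjusted p = 1.28e-12). WT held 241 to 270 CPM of Sfrp1, so both mutants lay apart from it in opposite directions.

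Nodal and BMP genes showed no common direction, with 2 of 22 higher in DNMT TKO and 3 in TET TKO (22.7% called against 14.3% of all genes). The ligand Bmp4 was at 21.7, 11.9 and 12.2 against 2.61 and 2.33 CPM, and the BMP target Id1 differed by 1.07 (0.85 without DNMT TKO replicate 2 and 0.94 without TET TKO replicate 2, both below the limit). Its relative Id2 and the Nodal inhibitor Lefty1 were higher in TET TKO, with differences of -2.09 and -2.49. Lefty1 varied within DNMT TKO (13.1, 4.11 and 4.13 CPM) and was no longer called without DNMT TKO replicate 2 (-2.20) or 3 (-2.21), or without TET TKO replicate 1 (-2.53) or 2 (-2.42).

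Genes of trophoblast, the outer lineage of the blastocyst, were called more often than genes at large. Of 21 tested, 8 were higher in TET TKO, 1 in DNMT TKO and 12 in neither (42.9% called against 14.3%). The median was -0.82, and the summed level of the list was 192 to 210 CPM in DNMT TKO against 359 and 362 CPM in TET TKO. Tead4, a transcription factor that starts this lineage, was at 35.3, 32.9 and 31.7 against 95.1 and 100 CPM (difference -1.55, SE 0.07). The keratins Krt8 (18.5, 12.3 and 12.1 against 63.3 and 59.4 CPM) and Krt18 and the factors Gata2, Gata3 and Eomes were also higher in TET TKO. Tead4 and the keratin pair are read in ES cells too, and WT held 65.4 to 69.5 CPM of Tead4. Cdx2, a defining factor of trophectoderm, showed the opposite order, at 6.5, 5.52 and 5.48 against 0.599 and 0.451 CPM. A smaller number of cells and less RNA per cell cannot be told apart in such bulk samples.

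Of 21 mesoderm and endoderm genes, 6 were higher in TET TKO and 3 in DNMT TKO (42.9% called against 14.3% of all genes). Their summed level was 209 to 230 against 279 to 291 CPM, but without Lamb1 the order turned, with 175 to 200 against 148 and 155 CPM. Lamb1, a laminin chain of endodermal basement membrane, was at 33.3, 29.9 and 28.7 against 131 and 136 CPM. Gata4, Hand1, Sox7 and Amn were lower in DNMT TKO, with log2 differences of -1.09, -2.31, -4.80 and -1.97. T, Kdr and Hnf4a were higher in DNMT TKO. In the neural list (181 to 209 against 235 to 241 CPM) and the fibroblast list (1587 to 1950 against 1954 to 2097 CPM) 2 of 9 and 1 of 11 genes were called (22.2% and 9.09%, counts too small to set apart from the 14.3% over all genes). Without Ncam1 and without Fn1, the members with the widest gaps, the sums of these lists overlapped, at 150 to 168 against 158 and 162 CPM and at 9.04 to 11.6 against 10.3 and 10.6 CPM. The defining fibroblast gene Col1a2 was near 0, at 0.457 to 1.17 against 0.458 and 0.188 CPM, and its call was lost under several alternatives. The part of other cell types in the differences was not tested.

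Genes of nucleic acid sensing and interferon response were called in 8 of 35 cases, 7 higher in DNMT TKO, or 22.9% against 14.3% of all genes. The membrane protein gene Ifitm1 was at 144, 146 and 133 against 44.2 and 39.7 CPM, and Oas1a, which senses double-stranded RNA, at 67 to 73.3 against 31.2 and 28.7 CPM. The RNA sensors Tlr3 and Ifih1 and the effectors Oasl2 and Mx1 were at most 1.16 CPM in any of the 5 libraries, and Cxcl10 rested on 7 reads. Zbp1, a sensor of Z-form nucleic acids, was higher in TET TKO, at 3.28 and 4.21 against 0.242 to 0.578 CPM. Of 23 p53 targets 1 was called (4.35%). Hox genes were called in 6 of 37 cases, 16.2% and so near the 14.3% over all genes, 5 of them higher in DNMT TKO at low levels, with Hoxb13 the highest at 2.03, 6.84 and 6.63 against 1.52 and 1.65 CPM. The list of 24 genes of the 2-cell stage had a median of 0.56 but 2 calls (8.33%), both from the symbol BB287469, which names 2 gene entries that differed by 3.38 and -3.13. Both lines held Y-linked transcripts (summed level 375 to 400 and 448 to 451 CPM over 8 genes), with Zfy1 at 11.5, 17.5 and 18.2 against 1.16 and 1.28 CPM, Usp9y and Zfy2 also higher in DNMT TKO, and the histone demethylase gene Kdm5d higher in TET TKO, at 23 and 23.2 against 1.88 to 4.74 CPM. In the formative list (21.4% of 14 called) Grhl2 and Otx2 were higher in DNMT TKO and Sox4 in TET TKO. The Otx2 call was lost whenever 1 of the 5 libraries was left out (differences of 0.96 to 1.15) and with no filter (1.07).

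The widest single-gene differences included genes with almost no reads in 1 line. In DNMT TKO, Tm7sf4, a fusion protein of osteoclasts and dendritic cells, was at 7.41, 10.6 and 10.3 CPM against 0 and 0.0751 (difference 7.83). Parm1, a mucin-like membrane protein, was at 36.4, 66.6 and 66.4 against 0.458 and 0.638 CPM, and Nlrp9b, an inflammasome sensor, at 21.4, 21.1 and 22.9 against 0.106 and 0.413 CPM. Ushbp1, Gm14094 and 1700013H16Rik differed by 7.61, 6.80 and 6.10. For all these WT was by TET TKO, at 2.12 CPM or less. The gene 2410141K09Rik differed in that WT, at 35.9 to 45.6 CPM, was by DNMT TKO (36.9 to 45.9) and TET TKO was the line apart, at 0.458 and 0.225 CPM.

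In TET TKO, Ubd, which encodes the ubiquitin-like protein FAT10, was at 15.5 and 13.1 CPM with no read in any DNMT TKO library, at least 357-fold higher against 3 reads over the group. Gm10499, also on chromosome 17, was at 42.2 and 43.9 against 0.152 to 0.38 CPM, and WT held 0.0708 to 0.278 CPM. Gsto1, a glutathione transferase, was at 325 and 294 against 6.55 to 13 CPM with WT at 35.4 to 39.8. Sema5a, a semaphorin of axon guidance, was at 57.6 and 62.1 against 0.193 to 0.863 CPM, and here WT, at 38.5 to 46.8 CPM, was nearer to TET TKO. In 2410018L13Rik, Gm14567 and 5730507C01Rik DNMT TKO was likewise the line apart, at 0.501 CPM or less with WT at 6.69 CPM or more, and WT of Gm14567 (12.2 to 14 CPM) lay within the TET TKO values (15.8 and 8.67 CPM). Rpl29, a ribosomal protein gene, was at 62.9 and 58.2 against 1.17 to 2.03 CPM, and its many processed copies make the assignment of its reads uncertain.

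Promoters of the genes higher in DNMT TKO held fewer CpGs. In windows of 300 bases around the deposited gene starts, read from the mm9 genome, the median was 8 CpGs (quartiles 3 and 16) for genes higher in DNMT TKO, 13 (5 and 24) for genes higher in TET TKO and 15 (6 and 25) for genes called in neither. Windows with 5 CpGs or fewer made up 39%, 27.6% and 22.7%. Expression level went along with CpG number, and with a mean of at least 10 CPM the medians were 14, 19 and 21, in the same order. Dazl, whose sequence is printed above, is among the CpG-rich exceptions. In WT cells, H3K4me3 regions lay within 1 kb of the start for 45.7% of genes higher in DNMT TKO (exact 95% interval 43.1% to 48.4%), 68.6% of genes higher in TET TKO (66.2% to 71%) and 71.3% of the others. H3K27me3, the Polycomb mark, lay by 24.4%, 32.5% and 13.8%, so it was more frequent in both called groups. KAP1 and H3K9me3 regions lay by few starts in each group (3.26%, 4.92% and 4.45%, and 1.74%, 1.44% and 1.14%). Intervals cover counting error only.

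TEs were tested as 123880 integrants, of which 7249 or 5.85% differed, 3052 (2.46%) higher in DNMT TKO and 4197 (3.39%) higher in TET TKO. The counts fell to 1497 and 2805 without TET TKO replicate 1 and to 1623 and 2545 without replicate 2, and library sizes taken from the TE reads gave a near-even 3533 and 3667. LTR elements, which descend from endogenous retroviruses (ERVs), were called most often, in 9.05% of 26970 integrants, with 4.28% higher in DNMT TKO and 4.77% higher in TET TKO. LINEs followed with 7.46% of 27754 (3.19% and 4.27%), then DNA elements with 4.51% (1.5% and 3.02%) and SINEs with 3.92% (1.46% and 2.46%). The groups did not overlap for 30.2% of all integrants. The filter counted reads of all 16 libraries, and with the 5 shEmpty libraries alone 45491 integrants passed it and 13.1% were called. Integrants not overlapping a gene on their own strand, which can lie antisense in a gene, made up 69.5% of those higher in DNMT TKO, 58% of those higher in TET TKO and 42.3% of the others, and 10.8%, 11.7% and 8.83% overlapped an exon on the same strand. In WT cells, KAP1 regions covered 21.4%, 10.9% and 7.7% of these groups and H3K9me3 regions 19.1%, 9.05% and 7.38%. For H3K4me3 the order was different, with 4.65%, 15.6% and 6.96%. The KAP1 difference was wide in LINEs (40.5%, 16% and 13.5%) and narrow in LTR elements (25.2%, 19.7% and 21.4%). In LINEs it rested on the family L1Md_A, described below. Of the 359 LINEs higher in DNMT TKO that overlapped KAP1, 337 were L1Md_A integrants, and for H3K9me3 it was 248 of 287. The same 337 were part of the 654 such integrants of all classes with KAP1, so these shares do not describe LINEs or TEs at large.

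The young L1 families, LINEs that include copies able to move, separated into families with opposite differences. L1Md_A was higher in DNMT TKO, with a family sum of 463, 413 and 433 CPM against 145 and 148 CPM (difference 1.57, SE 0.11, adjusted p = 3.68e-07), and WT stood between at 256 to 300 CPM. Of 3778 tested L1Md_A integrants, 418 (11.1%) were higher in DNMT TKO and 27 (0.715%) in TET TKO. Among the 2545 of 5 kb or longer, which can be near full length, the numbers were 350 (13.8%) and 12. The subdivision into integrants of single L1 families was made after values had been seen. When either TET TKO library was left out, 145 (without replicate 1) or 163 (without replicate 2) L1Md_A integrants were called higher in DNMT TKO, beside 17 in TET TKO in both cases.

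L1Md_T was lower in DNMT TKO. Its family sum was 480, 432 and 456 CPM in DNMT TKO, 825 and 1324 CPM in TET TKO and 1961 to 2207 CPM in WT, and the difference between the mutants was -1.24 (SE 0.15). One exonic integrant at chr13:9831268-9837911 accounted for the gap between the 2 TET TKO libraries, with 23 CPM in replicate 1 and 489 CPM in replicate 2 against 38.9 to 48.8 CPM in DNMT TKO. Without it the sums were 441, 392 and 407 CPM against 802 and 835 CPM. The family call was lost without TET TKO replicate 2 (-0.83) and without exonic integrants (-0.99), in both cases because the difference came below 2-fold. Of 6515 tested integrants, 484 (7.43%) were higher in TET TKO and 37 (0.568%) in DNMT TKO, and of 4246 at 5 kb or longer 384 (9.04%) and 17. The 484 became 296 without DNMT TKO replicate 2, 303 without TET TKO replicate 1 and 282 without TET TKO replicate 2. L1Md_Gf had the same order, at 17.8, 18.2 and 15.9 against 39.1 and 36.4 CPM with WT at 91.7 to 108 CPM, whereas L1Md_F (-0.31) and L1Md_F2 (-0.21) stayed below 2-fold.

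**Figure D2:**
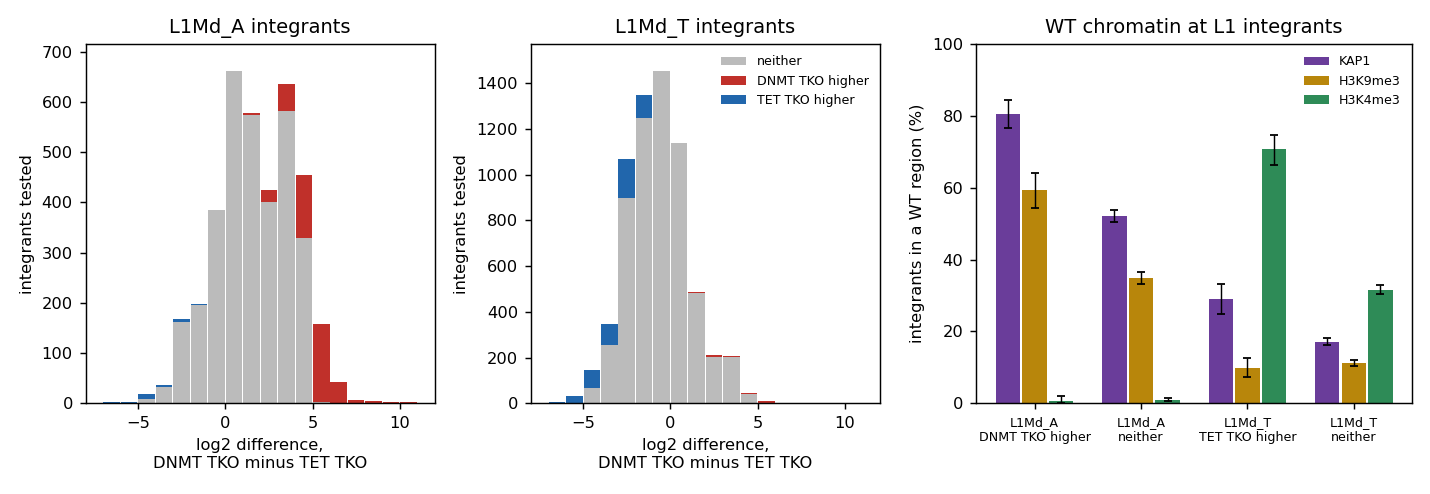
Left and middle, number of tested L1Md_A and L1Md_T integrants by log2 difference DNMT TKO minus TET TKO, coloured by call; right, percentage of L1Md_A integrants higher in DNMT TKO, L1Md_T integrants higher in TET TKO and uncalled integrants of both that overlap a WT KAP1, H3K9me3 or H3K4me3 region, with exact 95% intervals. Of the L1Md_A integrants higher in DNMT TKO 80.6% overlap KAP1, and of the L1Md_T integrants higher in TET TKO 70.7% overlap H3K4me3; the few called the other way (27 and 37) are in the counts but not in the right panel.

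Called integrants of both families were compared with the chromatin of WT cells. Of the L1Md_A integrants higher in DNMT TKO, 80.6% (exact 95% interval 76.5% to 84.3%) overlapped a KAP1 region and 59.3% (54.4% to 64.1%) an H3K9me3 region, against 52.2% and 34.9% of uncalled L1Md_A integrants, and 0.718% overlapped H3K4me3. Of the L1Md_T integrants higher in TET TKO, 70.7% (66.4% to 74.7%) overlapped an H3K4me3 region against 31.6% of uncalled ones. KAP1 overlap was higher in them too, at 28.9% (24.9% to 33.2%) against 17.1%, and H3K9me3 overlap was 9.71% (7.22% to 12.7%) against 11.3%. The 27 L1Md_A integrants higher in TET TKO overlapped KAP1 in 44.4% and the 37 L1Md_T integrants higher in DNMT TKO overlapped H3K4me3 in 10.8%. Called integrants also held more reads, with medians over the 5 libraries of 17 and 24 against 5 for uncalled integrants of either family. They were longer too, with medians of 6106.5 against 5370 bp for L1Md_A and 6093 against 5378.5 bp for L1Md_T. Overlap needed 1 bp only, and the parts of read depth and of length in these shares were not tested.

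TE families were tested as sums over their integrants. Of 894 families 72 (8.05%) differed, 28 (3.13%) higher in DNMT TKO and 44 (4.92%) higher in TET TKO. This split depended on the scaling, since 35 and 34 families were called with library sizes taken from the TE reads themselves. It also depended on TET TKO replicate 2, without which 31 were higher in DNMT TKO and 28 in TET TKO. The median family difference was -0.14, and it was 0.00 without TET TKO replicate 2 and -0.23 without replicate 1. Of 75 families listed by name, 69 could be tested, 4 were higher in DNMT TKO and 8 in TET TKO.

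Among ERVs, ETnERV-int, of the early transposon and MusD group, was at 376, 497 and 373 CPM in DNMT TKO against 194 and 155 CPM (difference 1.25). A single integrant gave 16.6% of its reads, and without it the sums were 288, 410 and 286 against 188 and 149 CPM. The ratio of means, TET TKO over DNMT TKO, was then 0.51, which is short of 2-fold. RLTR4_MM-int, of the murine leukaemia virus type, was at 77.2, 69.6 and 63.4 against 32.4 and 29.6 CPM. ETnERV3-int was at 34.9, 122 and 126 against 25.9 and 26.1 CPM, and 1 integrant gave 53.7% of its reads. Its call was lost without DNMT TKO replicate 2 or 3 and without either TET TKO replicate, with differences of 1.60 to 1.90. MuLV-int was far higher in TET TKO, at 108 and 114 against 3.25, 3.97 and 3.7 CPM (difference -4.91, SE 0.14), but a single integrant at chr5:23206398-23215063 held 93.2% of the reads. That integrant was at 105 and 110 CPM in TET TKO, at 48.1 to 61.1 CPM in WT and at 0.508 CPM or less in DNMT TKO. Without it the family sums overlapped, at 2.74 to 3.97 CPM in DNMT TKO and 2.96 and 3.34 CPM in TET TKO. One LTR at chr2:104534482-104534814 held 88% of the IAPLTR1a_Mm reads, and without it the sums were 0.102 to 0.207 against 0.317 and 0.225 CPM. One integrant held 77.7% of the RLTR4_Mm reads, and here the groups stayed apart without it, at 0.0508 to 0.173 against 0.67 and 0.563 CPM.

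RLTR10-int (32.2 to 35.8 against 90.8 and 88.9 CPM) and the solitary LTRs IAPLTR2_Mm (6.29 to 6.46 against 15.4 and 16 CPM) were spread over more integrants, the largest giving 7.73% and 18.2% of the reads. RLTR45-int was at 339, 491 and 436 against 1053 and 1011 CPM, while WT held 23.3 to 60.3 CPM, so both mutants were above WT. A single exonic integrant at chr4:8044183-8051623 held 20.7% of its reads, with 308 and 345 CPM in TET TKO against 2.95 to 8.49 CPM in DNMT TKO. Without that integrant the sums were 337, 482 and 427 against 745 and 667 CPM, a ratio of means of 1.70. The family call was lost without exonic integrants (-0.78) and whenever 1 library was left out (-1.13 to -1.41). The IAP elements with the internal part IAPEz-int, the youngest mobile ERVs of the mouse, did not reach a call, at 83, 73.4 and 135 against 82.6 and 80.6 CPM (difference 0.25, adjusted p = 0.487). MERVL-int, an ERV active at the 2-cell stage, was at 119, 308 and 332 against 196 and 190 CPM (0.39, adjusted p = 0.517) and its groups overlapped. MMETn-int (1268 to 1340 against 1191 and 1134 CPM), MMERVK10C-int and the LTR MT2_Mm were also within 2-fold, and no listed SINE family was called.

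**Figure D3:**
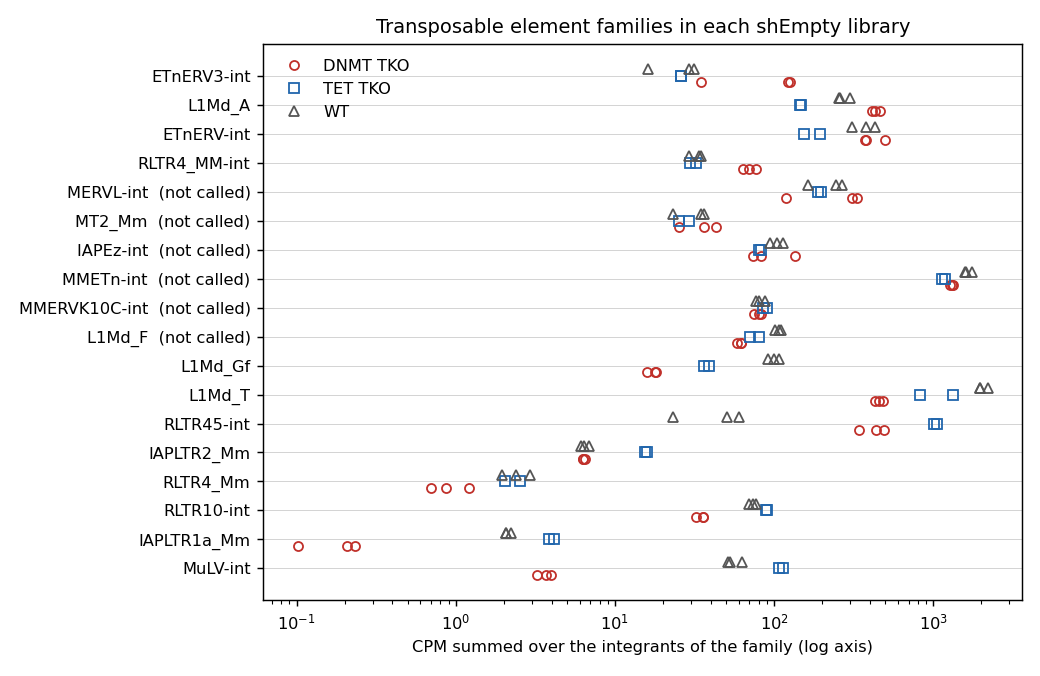
CPM summed over the integrants of each named TE family on a log axis, 1 symbol per shEmpty library of DNMT TKO, TET TKO and WT, ordered by the log2 difference. MuLV-int and IAPLTR1a_Mm are lowest in DNMT TKO, L1Md_A and RLTR4_MM-int highest there, and IAPEz-int and MERVL-int overlap between the lines.

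Within families, integrants were called in both directions, beside 9.05% of all LTR integrants called (4.28% higher in DNMT TKO and 4.77% in TET TKO). ETnERV-int had 55 integrants higher in DNMT TKO (15.9%) and 17 in TET TKO (4.9%) of 347, and MMETn-int 57 (11.6%) and 41 (8.32%) of 493. MERVL-int, with 59 and 29 of 1072, and MMERVK10C-int, with 10 and 40 of 558, were near the LTR share in all (8.21% and 8.96%). For RLTR10-int the numbers were 10 (3.5%) and 42 (14.7%) of 286. IAPEz-int had 34 and 22 of 2550, or 2.2%, below the LTR share. Integrants entered the test by reads of all 16 libraries, the shKap1 libraries included. IAPEz-int was at 4217 to 9566 CPM in shKap1 libraries of the 2 lines, and its 2550 integrants held 11763 reads in the 5 shEmpty libraries. Shares near or below the LTR share are therefore not read as results about these families. The MMETn-int copy at chr9:7798968-7805186 was at 136, 207 and 194 CPM in DNMT TKO against 15.8 and 18.5 CPM, although the family sum did not differ by 2-fold.

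Among integrants higher in DNMT TKO with at least 200 reads, the widest difference was that of an RLTR10C, a solitary ERVK LTR of 433 bp at chr19:42234635-42235067 on the plus strand, outside annotated genes and 3373 bp from Zfyve27. It was at 35.4, 26.2 and 32 CPM in DNMT TKO and at 0.0352 and 0 CPM in TET TKO, and WT had 0.167 CPM in 1 library and 0 in the others. No KAP1, H3K9me3, H3K4me3 or H3K27me3 region of WT cells covered it. Its first 300 bases on NCBIM37 (mm9), with each CG in capitals, are given because reads of DNMT TKO over it had almost no counterpart in the other lines, and they hold 5 CpGs.

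RLTR10C (chr19:42234635-42234934, plus strand): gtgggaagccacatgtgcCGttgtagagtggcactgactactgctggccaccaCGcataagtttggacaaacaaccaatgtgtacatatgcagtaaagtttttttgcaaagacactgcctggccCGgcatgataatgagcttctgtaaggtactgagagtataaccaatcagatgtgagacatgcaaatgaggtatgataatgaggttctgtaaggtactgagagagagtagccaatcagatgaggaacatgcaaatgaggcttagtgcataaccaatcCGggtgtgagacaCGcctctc

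A pair of L1Md_A copies, both in WT regions of KAP1 and H3K9me3, came next by fitted difference, an order that is not one of bounds where a line has no read. The copy at chr3:90902860-90909066, for one, had more reads and was at 13.3, 13.6 and 16.2 against 0.0352 and 0 CPM (9.26). The copy at chr6:66950613-66959636, antisense to Gng12, was at 5.69, 8.53 and 6.32 CPM in DNMT TKO with no read in TET TKO, at least 129-fold higher. The copy at chr2:21917586-21924173 was at 9.24, 7.8 and 1.58 CPM against 0, at least 110-fold higher, but its adjusted p of 0.031 was lost when DNMT TKO replicate 1 or 2 or either TET TKO library was left out. In TET TKO, the exonic ORR1C1-int at chr17:36300146-36301526 was at 19.4 and 20.4 CPM with no read in DNMT TKO, at least 494-fold higher. The element lies between Gm10499 and Ubd, genes with the same pattern. ETnERV2-int at chr11:5596907-5599007 (4.09 and 6.35 CPM, at least 129-fold) and the exonic RSINE1 of Tmem18 at chr12:31275528-31275619 (4.51 and 4.32 CPM, at least 110-fold) also had no read in DNMT TKO. Their bounds lie below the ratio of the MuLV-int copy on chromosome 5 described above (difference -9.19).

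Whole chromosomes differed between the lines. Among genes with a mean of at least 10 CPM, the median difference was 0.30 on chromosome 11 (812 genes), -0.29 on chromosome 6 (441 genes) and -0.30 on chromosome 8 (541 genes), against -0.05 to 0.04 on the other numbered chromosomes shown and 0.03 on X. The shifts were alike in every library, at 0.304 to 0.311 for chromosome 11 and -0.283 to -0.298 for chromosome 6 in the 3 DNMT TKO libraries. For chromosomes 11 and 6 it was DNMT TKO that differed from WT (medians 0.32 and -0.32), and TET TKO did not (-0.01 and -0.02). On chromosome 8 TET TKO lay above WT, with a median of 0.13 in all, 0.12 before 100 Mb and 0.14 from there on. The shift between the lines was uneven along it. From 100 Mb on, 169 genes had a median of -0.65 and DNMT TKO lay below WT by the same measure (-0.52), whereas the 372 genes before that point had a median of -0.08 (DNMT TKO minus WT 0.06). Of these, the 57 in the first 20 Mb had a median of -0.30 (DNMT TKO minus WT -0.13). Of the tested genes beyond 100 Mb, 63 of 314 were called higher in TET TKO and 7 in DNMT TKO, against 74 and 38 of 694 before it. The boundary of 100 Mb was chosen after the values were seen. With an offset for the median of each chromosome 2832 genes were called, 2705 of them shared with the 2909.

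**Figure D4:**
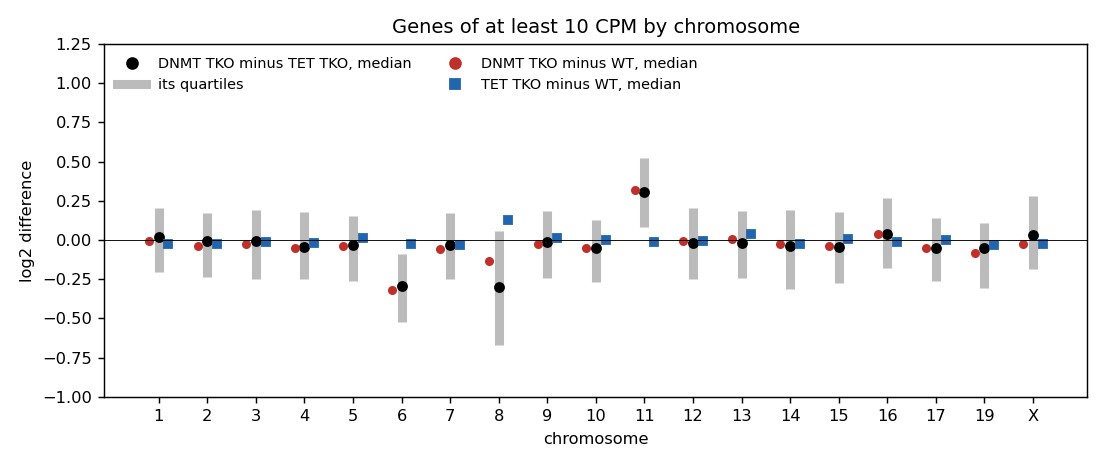
Median log2 difference of genes with at least 10 CPM by chromosome, for DNMT TKO minus TET TKO (black, quartiles in grey), DNMT TKO minus WT (red) and TET TKO minus WT (blue). Chromosome 11 stands at 0.30 and chromosomes 6 and 8 at -0.29 and -0.30, and on 11 and 6 the DNMT TKO minus WT medians carry the shift.

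The shKap1 libraries of the 2 lines, which share no library with the 5 above, gave the same call for 878 of the 1383 genes higher in DNMT TKO (63.5% of these and 46.7% of the 1879 called in shKap1, which were 9.25% of all genes) and for 741 of the 1526 genes higher in TET TKO (48.6%, and 48.4% of 1530, which were 7.53%). The opposite call was given for 16 and 30 genes. In shKap1, 16.8% of genes and 13% of integrants were called. For integrants the same call came in 1543 of 3052 (50.6% of these and 26.8% of 5763, or 4.65% of all integrants) and 1984 of 4197 (47.3% and 19.1% of 10394, or 8.39%). Trim28 itself was higher in DNMT TKO shKap1 than in TET TKO shKap1, by 1.37, so the level left after knockdown differed between the lines. For genes called without knockdown, the change of the difference with the Kap1 hairpin had an adjusted p below 0.05 in 232 of 1383 and 350 of 1526. Over all features the same test passed in 10.4% of genes, 1.28% of integrants and 13% of families, and since the called genes were picked by the shEmpty difference, which is a term of that change, nothing is read from their higher share.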

How the data were processed

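RNA was measured in 16 libraries, of which 3 DNMT TKO and 2 TET TKO shEmpty libraries form the comparison. The deposited values are whole read counts per gene and per repeat. The authors sequenced stranded mRNA libraries, aligned reads to mm9 with HISAT2 (2.0.1), kept unique reads, counted genes by strand with featureCounts (1.5.1 by the submitters' processing notes) and counted repeats with bedtools (2.25), after merging LTRs with internal parts of the same name within 400 bp. rRNA and other repeats outside the LINE, SINE, LTR and DNA classes were not tested. Deposited WT peak regions gave the chromatin overlaps (gene start within 1 kb, integrants at least 1 bp), without use of their deposited scores or fold enrichment.

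Features of 16 or more reads summed over the 16 libraries entered edgeR 4.0.16 (R 4.3.3), where counts were scaled by TMM and 6 groups were fitted with the robust quasi-likelihood method, with Benjamini-Hochberg adjustment per contrast. Calls were set at an adjusted p under 0.05 together with a difference of 2-fold or more. TEs took the gene library sizes, and families were sums over integrants, a merged element counting under the name of its internal part, or its first name without one. CPM are counts over the scaled library size. SE are from the fit, and WT positions used a prior of 0.5 CPM. Fold bounds set a group without reads to 3 reads. Symbols were found for 37205 of 37991 genes.

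Members and gene lists were chosen with earlier results of these data known. Named were the deleted genes, the 8 widest differences each way among called genes with at least 500 reads and no overlap, up to 3 called members each way of each list, and the 3 integrants each way with the widest fitted differences and at least 200 reads; other list members named, and the single genes or integrants left out of sums, were chosen after their values were seen. Members of chromosome 18 and some other list members are not reported here. RefSeq promoter windows matched 59% of tested genes, under the 80% needed, so that check is void and windows were read from the mm9 genome, a choice made after seeing the data; 98.6% of genes had the same coordinates in its annotation. Alternatives changed scaling, filter, tool (DESeq2 1.42.0, limma-voom 3.58.1), fold limit, libraries, replicate number, chromosome offset and exonic integrants.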

Additional observations from a re-analysis of the deposited data

Results flagged for a closer look

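Of 128 named genes, integrants and families tested, 39 had a difference between DNMT TKO and TET TKO that itself differed between shEmpty and shKap1 libraries, by edgeR's quasi-likelihood test of that change at an adjusted p below 0.05. Over all features tested the same test passed in 10.4% of genes, 1.28% of integrants and 13% of families, and many of the 128 were picked for a wide shEmpty difference, which is a term of the change tested. Values are the shEmpty difference minus the shKap1 difference on the log2 scale. Trim28 stood at -1.34, since more of its transcript was left in DNMT TKO than in TET TKO after knockdown, so depth of knockdown and line cannot be told apart in any of these values.

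Among genes, the value was 5.03 for Nlrp9b, 3.81 for BB287469, 3.47 for Usp26, 2.71 for Asb4, 2.61 for Nnat, 2.49 for Cdx2, 2.39 for Zfy1, 2.09 for Dkk1, 1.96 for T, 1.41 for Zfy2, 1.10 for Inpp5f, 1.04 for Zfp42, 0.98 for Plagl1, 0.88 for Meg3 and 0.58 for Setdb1. Below 0 were Hnf4a (-5.90), Igf2 (-2.90), Brdt (-2.73), Zbp1 (-1.79), Xlr5c (-1.63), 5730507C01Rik (-1.63), Sema5a (-1.46), Dio3 (-1.43), Pramel7 (-1.35), Sox4 (-1.02), Neil3 (-0.98) and Lamb1 (-0.94). Usp26 differed between the lines by 4.37 without and 0.90 with the Kap1 hairpin, and Igf2 by -4.37 and -1.47. Cdx2 went from 3.45 to 0.97, while Hnf4a went from 1.62 to 7.52.

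Among repeats, the L1Md_A copy at chr6:66950613-66959636 had a value of 8.60, and the families MERVL-int 2.32, MT2_Mm 2.10, RLTR4_MM-int 1.67, ETnERV-int 1.29, L1Md_A 0.87, L1Md_Gf -0.73, L1Md_T -1.08, RLTR10-int -1.13, IAPLTR2_Mm -1.22 and IAPLTR1a_Mm -3.54. L1Md_A differed between the lines by 1.57 without and 0.70 with the hairpin. MERVL-int and MT2_Mm differed by 0.39 and 0.36 without the hairpin and by -1.93 and -1.74 with it, and RLTR4_MM-int by 1.18 and -0.49. In 9 of the 39 the 2 differences had opposite signs.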

How the results depend on the processing

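Not every named list member was rerun singly. A change of sign without a call in the main or the alternative fit was not counted as a change of direction. Alternatives were run for 101 genes, 6 integrants and 18 families, of which none with a call in either fit changed direction. Of their values, 1265 of 1319 for genes, 76 of 82 for integrants and 238 of 252 for families stayed on their side of the limits. Gene calls, 2909, ranged from 2368 to 2970 where the fold limit was kept, with 2224 to 2835 shared. Without a fold limit 3631 and 4228 genes were called, and 250 list members in place of 124. Integrant calls with no filter were 1901 higher in DNMT TKO and 2625 in TET TKO, with DESeq2 1347 and 1878. Leaving out 1 library gave 1497 to 2933 and 2545 to 3343 integrants, and 21 to 31 and 28 to 55 families. L1Md_A integrants were 235 and 11 with no filter, 153 and 8 with DESeq2, 239 and 16 in the 5 libraries alone, and L1Md_T integrants 23 and 274, 15 and 186, and 313 in TET TKO. Leaving out 1 library gave 145 to 364 and 13 to 18 for L1Md_A and 19 to 35 and 282 to 392 for L1Md_T. In gene start windows of 5 kb the shares (DNMT TKO higher, TET TKO higher, neither) were 8.91%, 9.58% and 9.01% for KAP1, 4.57%, 4.4% and 3.63% for H3K9me3, 50.6%, 74% and 75.5% for H3K4me3 and 29.3%, 37.7% and 18.8% for H3K27me3. At 1 CPM chromosome medians were -0.27 (6) and 0.30 (11). The RefSeq windows, a check that is void as stated above, held medians of 9, 16 and 20 CpGs. Without 1 TET TKO library the lone one is assumed to vary like the other groups. The cause of these movements was not tested.

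The labels give both groups replicate numbers. Deviations of same-numbered libraries correlated with r of 0.00772 for replicate 1 and -0.0239 for replicate 2, over 15118 genes. With 2 TET TKO libraries the deviations of each mirror those of the other, so these values cannot decide whether the groups shared experiments. Replicate 1 had the fewest gene reads in both DNMT TKO (20134172) and WT (18613633), and a batch shared by these was not tested. With the replicate block 2904 genes, 6378 integrants and 70 families were called.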
